A study of Mus musculus with 12 samples.

Results

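The nuclear genes that encode the subunits of the mitochondrial oxidative phosphorylation complexes were compared between 4 dendritic cell populations of mouse bone marrow. They were taken from the bulk count table as the protein-coding genes whose symbols start with Ndufa, Ndufb, Ndufc, Ndufs, Ndufv, Uqcr, Cox4 to Cox8 or Atp5, plus Sdha to Sdhd, without the Ndufaf assembly factors, and had to average 10 counts or more across libraries. This gave 77 of the 21754 genes in the table, with 35 genes of complex I, 4 of complex II, 8 of complex III, 13 of complex IV and 17 of complex V. Ndufa4 was counted with complex IV, where its protein is now placed. All 77 passed the filter for testing, a mean count of at least 1, which 15293 genes passed.

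Oxidative phosphorylation takes place in the inner mitochondrial membrane. Complexes I and II take electrons from NADH and succinate, complex III passes them to cytochrome c, complex IV gives them to oxygen, and complex V, the ATP synthase, uses the proton gradient to make ATP. Most subunits are encoded in the nucleus and a few in mitochondrial DNA. Some nuclear subunits exist in paired isoforms from separate genes, one in most cells and one best known from a particular tissue. Cox6a2 is the isoform of subunit 6A known from heart and skeletal muscle and Cox6a1 the widespread one. Cox6b2 is the isoform of subunit 6B known from testis and Cox6b1 the widespread one.

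RNA came from bone marrow of C57BL/6 mice with no further treatment, from 3 individual animals per the study. Lineage-positive cells were removed, and 4 populations were sorted: Siglec-H- pre-cDCs, the precursors committed to conventional dendritic cells, the CD11c+Siglec-H+CCR9lo precursors with low B220 (lo-lo) or high B220 (lo-hi), and the CCR9hiB220hi plasmacytoid dendritic cells (pDCs). Each population had 3 SCRB-seq libraries, a bulk method that counts the 3' ends of transcripts. The 12 libraries held between 1801463 and 5995971 counts, with a median of 3087455. Normalised counts (CPM, counts scaled to a library of 1000000) below are corrected by the TMM factors of edgeR. In a bulk library, fewer cells of a type and less RNA per cell cannot be told apart. The order in which the populations are given serves comparison and, as a whole, is not a line of descent. In the paper, pre-cDCs generated conventional dendritic cells, lo-lo cells generated these and pDCs, and lo-hi cells mainly pDCs. Words such as step, neighbouring, rose and fell refer to this order and to differences between populations, not to change over time.

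The deposited labels could not be used as the grouping without reserve. The order of 28 transcription factors within each library (378 gene pairs) was compared with the source data of the study's own expression panel. All 12 samples of that panel matched 1 well each with 0 pairs in another order, while the next best well differed in at least 7 pairs. By this match the labels name a different population for 8 of the 12 wells and the same one for 4. The results below use the matched populations: pre-cDC in wells A1, A5 and A9, lo-lo in A2, A6 and A10, lo-hi in A3, A7 and A11, and pDC in A4, A8 and A12, in the order mouse 1, mouse 2 and mouse 3. The mouse numbers are the sample numbers of that panel, taken here to stand for the 3 animals, although the study ties no number to an animal. The sorting markers followed the matched populations. Ccr9, the chemokine receptor used in the sort, had 33.0 ± 11.5, 66.0 ± 3.26, 230.5 ± 18.04 and 460.5 ± 61.8 CPM (SD, n = 3) from pre-cDC to pDC, and Siglech, the pDC surface lectin, 308.2 ± 121.6, 854.8 ± 136.1, 2131 ± 206.0 and 2791 ± 232.2 CPM. Grouped by the deposited labels, edgeR called 0 of 15293 genes and 0 of the 77 subunit genes between the populations, and 166 of all genes but 0 subunit genes had an unadjusted p under 0.05. The match used transcription factors and no subunit gene.

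The promoters of these genes are known for sites of NRF1, of ETS factors such as GABPA, of YY1 and of the estrogen-related receptors (ERR). RefSeq windows on GRCm38.p6, from 250 bases before to 50 after the start, were at hand for 63 of the 77 genes and for 27025 genes in all. Both strands were searched for exact letters. The NRF1 core CGCATGCG was in windows of 9 of the 63 subunit genes (14.3%) against 2.07% of all genes. The ETS core CCGGAAG was in 16 (25.4% against 9.93%), the YY1 core AAGATGGC in 9 (14.3% against 3.19%) and the ERR core TCAAGGTC in 3 (4.76% against 1.18%). The SP core GGGCGG (39.7% against 38.2%) and CCAAT (41.3% against 41.1%) were about as frequent as among all genes. None of these letters were found for 11 of the 63 genes. Cox6a2 was not among the 63.

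The 250 bases before the start are shown for 3 genes on which results below turn: Cox6a1, the widespread partner of Cox6a2 (chr5:115348959-115349208, minus strand), Atp5g3, which encodes subunit c of the ATP synthase (chr2:73911327-73911576, minus strand), and Cox6b2 (chr7:4753095-4753344, minus strand). Capitals mark the letters searched for, on either strand. In Cox6a1 they are, from the left, NRF1, SP, CCAAT, SP and ETS, with the NRF1 letters starting 161 bases before the start. In Atp5g3 they are CCAAT and ERR, the latter 51 bases before the start, and in Cox6b2 CCAAT, SP and CCAAT. No letters of the 3 windows belong to more than 1 motif. Results below also turn on Atp5o, Uqcrc1 and Cox5a, which are not shown. Their 250 bases held none of the letters in Atp5o and Uqcrc1 and only SP in Cox5a. Uqcrc1 had the NRF1 letters in its full window.
Cox6a1: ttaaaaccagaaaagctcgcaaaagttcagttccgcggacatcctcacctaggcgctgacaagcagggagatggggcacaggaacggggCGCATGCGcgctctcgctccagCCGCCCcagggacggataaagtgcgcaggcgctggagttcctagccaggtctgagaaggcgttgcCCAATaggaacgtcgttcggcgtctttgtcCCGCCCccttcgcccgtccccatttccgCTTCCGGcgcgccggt
Atp5g3: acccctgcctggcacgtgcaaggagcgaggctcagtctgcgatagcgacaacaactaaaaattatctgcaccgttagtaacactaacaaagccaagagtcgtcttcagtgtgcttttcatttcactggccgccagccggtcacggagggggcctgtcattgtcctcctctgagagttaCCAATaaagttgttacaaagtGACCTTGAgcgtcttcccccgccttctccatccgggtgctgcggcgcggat
Cox6b2: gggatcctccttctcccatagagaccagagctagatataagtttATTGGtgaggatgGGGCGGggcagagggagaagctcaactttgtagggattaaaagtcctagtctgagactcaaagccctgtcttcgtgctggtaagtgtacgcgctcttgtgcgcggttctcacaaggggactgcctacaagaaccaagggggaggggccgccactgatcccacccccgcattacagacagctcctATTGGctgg

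Among the 77 genes, Cox6a2 had the clearest difference between populations, and it went against nearly all others. Its gene lies at chr7:128205435-128206387 (GRCm38, GENCODE vM21, minus strand) and overlaps Itgad on the opposite strand, which had a mean count of 23.8 where Cox6a2 had 3234. Cox6a2 was at 216, 271 and 198 CPM in the 3 pre-cDC libraries. In lo-lo cells it was at 740.3, 654 and 848 CPM, in lo-hi cells at 1481, 1311 and 1377 CPM, and in pDCs at 1684, 1343 and 1233 CPM. All 3 lo-lo libraries lay above all pre-cDC libraries and all 3 lo-hi libraries above all lo-lo libraries, while lo-hi and pDC libraries overlapped.

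Cox6a2 rose by 1.72 ± 0.16 on the log2 scale (SE) from pre-cDC to lo-lo (adjusted p = 1.07e-07, edgeR quasi-likelihood test, Benjamini-Hochberg over 15293 genes) and by 0.90 ± 0.15 from lo-lo to lo-hi (adjusted p = 2.63e-04). From lo-hi to pDC the log2 difference was 0.03 ± 0.15 (adjusted p = 0.975). pDCs were thus 2.64 ± 0.16 above pre-cDCs (adjusted p = 9.23e-12), and the difference was 2.96, 2.31 and 2.64 within mouse 1, 2 and 3. Without the libraries of mouse 1, the step from lo-lo to lo-hi was 0.82 with an adjusted p of 0.0438, over the cutoff of 0.01, and the difference between pDC and lo-lo was 0.74 with an adjusted p of 0.03.

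Cox6a1 did not pass the test in any comparison with pre-cDCs. It was at 663, 502.3 and 817.5 CPM in pre-cDCs and at 587, 477 and 429 CPM in pDCs, so that the groups overlapped, and the log2 difference was -0.41 ± 0.17 (adjusted p = 0.0679). The share of Cox6a2 in the counts of both genes, which is not corrected for transcript length, was 24.5%, 35.0% and 19.5% in the pre-cDC libraries. It was 26.3 ± 7.93% (SD, n = 3) on average in pre-cDCs, 56.7 ± 1.30% in lo-lo, 72.5 ± 1.25% in lo-hi and 74.1 ± 0.228% in pDCs. The widest 95% exact binomial interval of a single library, that of pre-cDC in mouse 2, ran from 32.7% to 37.4%. These intervals cover counting error only. They treat each count as an independent molecule, and would be too narrow if the counts are reads, which the sources used here do not say.

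**Figure D1:**
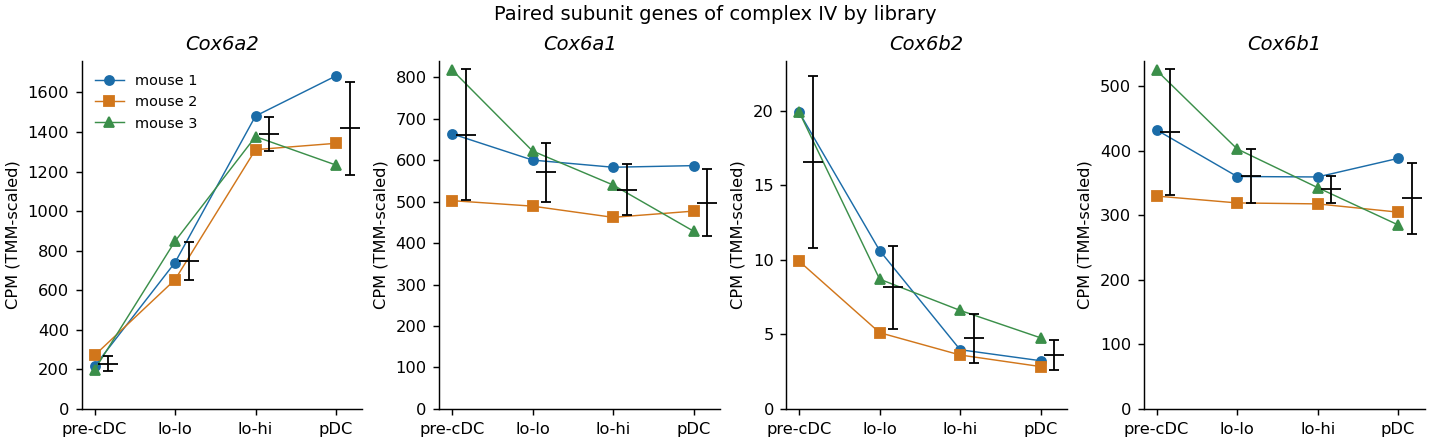
CPM of Cox6a2, Cox6a1, Cox6b2 and Cox6b1 (vertical axes, each from 0) in the 12 libraries by population (horizontal axis). Symbols joined by lines are the libraries of one mouse, and black marks with bars give the mean and SD of 3 libraries. Cox6a2 runs from 228 CPM on average in pre-cDCs to 1420 CPM in pDCs, and Cox6b2 from 16.6 to 3.62 CPM.

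Cox6b2 was the gene with the largest fall. It lies at chr7:4751792-4753094 (minus strand) and was a lowly counted gene, with 7 to 68 counts per library. It was at 19.9, 9.92 and 19.9 CPM in pre-cDCs, at 10.6, 5.12 and 8.71 CPM in lo-lo, at 3.98, 3.62 and 6.61 CPM in lo-hi, and at 3.24, 2.84 and 4.77 CPM in pDCs. No lo-hi or pDC library reached the lowest pre-cDC library. Cox6b2 fell by 1.89 ± 0.33 on the log2 scale from pre-cDC to lo-hi (adjusted p = 1.11e-04) and by 2.28 ± 0.32 from pre-cDC to pDC (adjusted p = 3.98e-06). The step from pre-cDC to lo-lo, -1.04 ± 0.28, missed the cutoff (adjusted p = 0.0269) and passed it with mouse as a block (adjusted p = 0.00294). Cox6b1 was at 428.7 CPM in pre-cDCs and at 326 CPM in pDCs on average, a log2 difference of -0.39 ± 0.17 (adjusted p = 0.0726).

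Over the 4 populations together, 6 of the 77 genes passed the cutoff (7.79%) against 19.9% of all genes tested. They were Cox6a2 (adjusted p = 2.20e-11), Cox6b2 (9.60e-06), Atp5o (7.75e-04), Atp5g3 (0.00377), Uqcrc1 (0.00479) and Cox5a (0.00510), each as an adjusted p of the same edgeR test. With mouse as a block, 16 subunit genes passed (20.8%) against 24.4% of all genes. The share of subunit genes that differed was therefore below or near that of all genes in both fits. Without a filter on low counts, 18 passed (23.4%), above the 16.9% of all genes.

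Between neighbouring populations few subunit genes passed. From pre-cDC to lo-lo, 1 gene was higher, Cox6a2 (1.61% of all genes were), and 0 were lower (1.55% of all genes). At an unadjusted p under 0.05, 5 of the 77 were lower, beside 1201 of all 15293 genes. From lo-lo to lo-hi, 1 was higher, again Cox6a2 (2.33%), and 0 were lower (2.83%), with 2 lower at an unadjusted p under 0.05 (1514 of all genes were). DESeq2 also called 1 gene in each of these steps. From lo-hi to pDC, 0 were higher (0.118%) and 0 lower (0.844%) with edgeR, and DESeq2 likewise called 0. There 2 genes, Atp5mpl and Atp5o, had an unadjusted p under 0.05, both with lower values in pDCs (979 of all genes were lower). In each step the share of the 77 genes that was lower at this level was below that of all genes. Mouse as a block added Cox6b2 as lower in lo-lo than in pre-cDC, where 2.36% of all genes were lower.

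The direction was nevertheless uneven. In all 3 mice, 34 of 77 genes had lower CPM in lo-lo than in pre-cDC (19.3% of all genes did) and 2 had higher CPM (24.7%). From lo-lo to lo-hi, 28 were lower in all 3 mice (23.1%) and 10 higher (22.4%). From lo-hi to pDC, 21 were lower (16.5%) and 2 higher (18.4%). These counts are descriptions, since the genes of a complex and the libraries of a mouse are not independent, and the lo-lo and lo-hi libraries each enter 2 of these steps.

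The broadest difference lay between pDCs and pre-cDCs. Of the 77 genes, 11 were lower in pDCs (14.3% against 10.4% of all genes) and 1 was higher (11.4% of all genes). The median log2 fold change was -0.37 over the subunit genes and 0.05 over all genes, and 68 of the 77 had a negative value. In all 3 mice, 44 genes were lower in the pDC library (25% of all genes) and 2 were higher (29.3%). For 14 genes no pDC library reached the lowest pre-cDC library, which at 18.2% is near the 17.9% of all genes. For 2, Cox6a2 and Uqcrh, every pDC library lay above every pre-cDC library (2.6% against 21.5% of all genes). With mouse as a block, 18 genes were lower (23.4% against 12.2% of all genes). When 1 library at a time was left out, Cox6a2, Cox6b2, Atp5o and Cox5a passed in all 12 fits, and the other 8 genes in 7 to 9 of the 12.

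**Figure D2:**
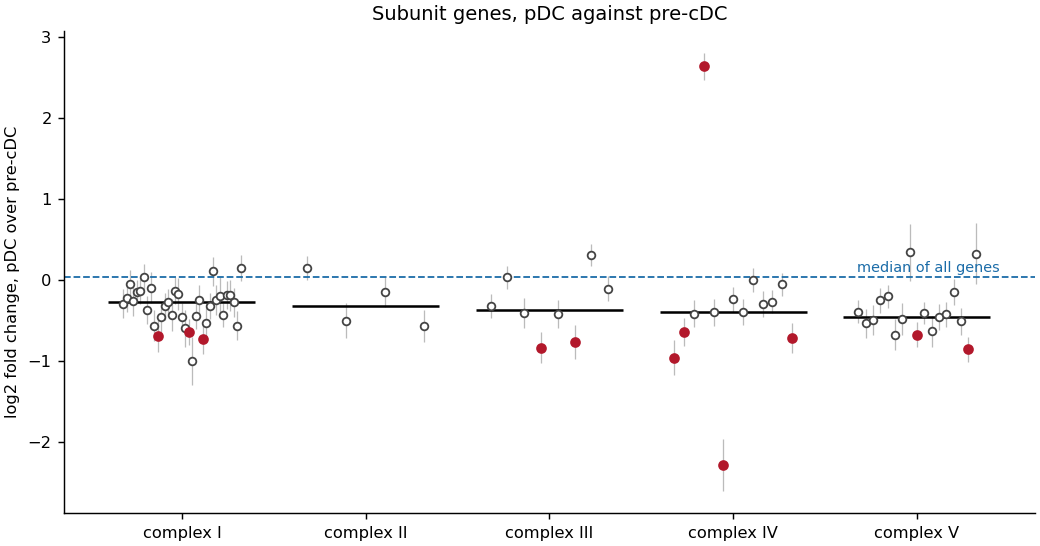
log2 fold change of pDC over pre-cDC (vertical axis, with the standard error) for the 77 subunit genes by complex (horizontal axis). Filled points passed an adjusted p of 0.01, open points did not, black lines are the median of a complex, and the dashed line is the median of all 15293 genes. The medians of complexes I to V lie at -0.27, -0.32, -0.36, -0.39 and -0.45, and Cox6a2 stands apart at 2.64.

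Complex I, the NADH dehydrogenase, had 3 of 35 genes lower in pDCs than in pre-cDCs, a share near the 10.4% of all genes, and a median of -0.27. The 3 encode accessory subunits. Ndufc2 was at 145.5, 104 and 180 CPM in pre-cDCs and at 95.4, 80.2 and 85.5 CPM in pDCs (log2 fold change -0.72 ± 0.18, adjusted p = 0.00377). Ndufa9 went from 96.3, 78.8 and 126 to 77.8, 52.8 and 55.1 CPM (-0.69 ± 0.19, adjusted p = 0.00788), and Ndufb7 from 357, 266 and 432 to 242.5, 238.5 and 198 CPM (-0.64 ± 0.16, adjusted p = 0.00381). In all 3 genes the lowest pre-cDC library stayed above the highest pDC library. For Ndufa9 that gap was 78.8 against 77.8 CPM. Ndufb8, another accessory subunit, had the lowest fitted value of the complex, -0.996 ± 0.294, but missed the cutoff (adjusted p = 0.0184).

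Among the subunits of complex I that carry the flavin or iron-sulfur clusters were Ndufs1, Ndufs7, Ndufs8, Ndufv1 and Ndufv2, and 0 of these 5 passed by edgeR. Their log2 fold changes ran from -0.56 ± 0.18 for Ndufv2 (adjusted p = 0.0195) to -0.18 ± 0.17 for Ndufs7 (adjusted p = 0.453), and Ndufs1 and Ndufv2 had an unadjusted p under 0.05. Ndufs3, a core subunit without such a cofactor, was at 0.11 ± 0.18 (adjusted p = 0.676). With mouse as a block Ndufv2 passed (adjusted p = 0.00682).

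Complex II, succinate dehydrogenase, had 0 of 4 genes called by edgeR in the 6 comparisons. In pDC against pre-cDC, 10.4% of all genes were lower and 11.4% higher, so 0 of 4 does not set this complex apart. There 2 of the 4 were lower at an unadjusted p under 0.05, beside 2893 of all 15293 genes. Sdha, the flavoprotein, was at 129, 112 and 125 CPM in pre-cDCs and at 155.5, 133 and 118 CPM in pDCs, a log2 difference of 0.15 ± 0.15 (adjusted p = 0.482). Sdhb, the iron-sulfur subunit, was at -0.50 ± 0.22 (adjusted p = 0.0897), and the membrane anchors Sdhc and Sdhd at -0.15 ± 0.18 and -0.56 ± 0.20 (adjusted p = 0.596 and 0.0316). With mouse as a block, Sdhd passed in pDC against pre-cDC (adjusted p = 0.00771).

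Complex III, the cytochrome bc1 complex, had 2 of 8 genes lower in pDCs (10.4% of all genes were). Uqcrc1, a core protein encoded at chr9:108936633-108949623, was at 148, 111 and 185.5 CPM in pre-cDCs, at 114, 84.6 and 132 CPM in lo-lo, at 87.9, 79.7 and 99.2 CPM in lo-hi, and at 101, 77.7 and 70.3 CPM in pDCs. It fell by 0.83 ± 0.19 on the log2 scale from pre-cDC to pDC (adjusted p = 0.00163) and by 0.74 ± 0.20 from pre-cDC to lo-hi (adjusted p = 0.00722). Uqcrfs1, the Rieske iron-sulfur protein, fell by 0.76 ± 0.21 (adjusted p = 0.00687). Uqcrc2, the other core protein, was at -0.41 ± 0.17 (adjusted p = 0.0744).

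Uqcrh, the hinge protein between cytochrome c1 and cytochrome c, had the opposite order. It was at 373, 358.5 and 399.6 CPM in pre-cDCs, at 392, 345 and 429 CPM in lo-lo, at 466, 474 and 441 CPM in lo-hi, and at 518, 429 and 457 CPM in pDCs. pDC and pre-cDC libraries did not overlap, but the log2 difference of 0.31 ± 0.14 missed the cutoff (adjusted p = 0.0882). The gene overlaps the processed pseudogene Gm12854 on the opposite strand, which had a mean count of 209.2 where Uqcrh had 1394. Uqcrh shares sequence with processed pseudogenes, 2 of which, Uqcrh-ps1 and Uqcrh-ps2, held 1837 and 1570 counts over the 12 libraries, and how reads were divided between them is not given in the sources used here.

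Complex IV, cytochrome c oxidase, had 4 of 13 genes lower and 1 higher in pDCs (10.4% and 11.4% of all genes). Beside Cox6b2, those lower were Cox5a and Cox5b, subunits on the matrix side, and Ndufa4. Cox5a (chr9:57521274-57532426) was at 148, 118 and 207 CPM in pre-cDCs and at 105, 76.8 and 60.3 CPM in pDCs, a fall of 0.95 ± 0.21 on the log2 scale (adjusted p = 0.00120). Cox5b was at 301.6, 209 and 371 CPM in pre-cDCs and at 217, 182 and 166 CPM in pDCs, and fell by 0.64 ± 0.17 (adjusted p = 0.00574), although mouse 1's pDC library lay above mouse 2's pre-cDC library. Ndufa4 fell by 0.71 ± 0.18 (adjusted p = 0.00412). Fitted values nearer to 0 were those of Cox6c (-0.23 ± 0.15, adjusted p = 0.263), Cox8a (-0.05 ± 0.14, adjusted p = 0.827) and Cox7a2l, which encodes a factor of respiratory supercomplexes (-5.95e-04 ± 0.15, adjusted p = 0.999). Cox7a2, the widespread isoform of subunit 7A, was at -0.40 ± 0.16 (adjusted p = 0.0629).

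Complex V, the ATP synthase, had 2 of 17 genes lower in pDCs, again near the share of all genes, and the lowest median of the complexes, -0.45. Atp5o (chr16:91925214-91931687), which encodes the subunit that joins the catalytic head to the peripheral stalk, was at 415, 336 and 487 CPM in pre-cDCs, at 358.5, 324.5 and 374 CPM in lo-lo, at 279, 306 and 307.5 CPM in lo-hi, and at 265.5, 221 and 199.6 CPM in pDCs. It fell by 0.85 ± 0.16 on the log2 scale from pre-cDC to pDC (adjusted p = 1.11e-04). Atp5g3 (chr2:73908447-73911326), 1 of 3 genes for the same proton-carrying subunit c, was at 443, 333 and 432 CPM in pre-cDCs and at 308, 239 and 212 CPM in pDCs, and fell by 0.67 ± 0.16 (adjusted p = 0.00172). Of its partners, Atp5g1 was at -0.48 ± 0.19 (adjusted p = 0.0631) and Atp5g2 at 0.34 ± 0.35 (adjusted p = 0.501).

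Atp5a1 and Atp5b, of the catalytic head of complex V, and Atp5c1 did not pass. Atp5a1 was at -0.38 ± 0.14 (adjusted p = 0.0428), Atp5b at -0.53 ± 0.18 (adjusted p = 0.0249) and Atp5c1, the central stalk, at -0.49 ± 0.19 (adjusted p = 0.0442). With mouse as a block Atp5b passed (adjusted p = 0.00544).

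**Figure D3:**
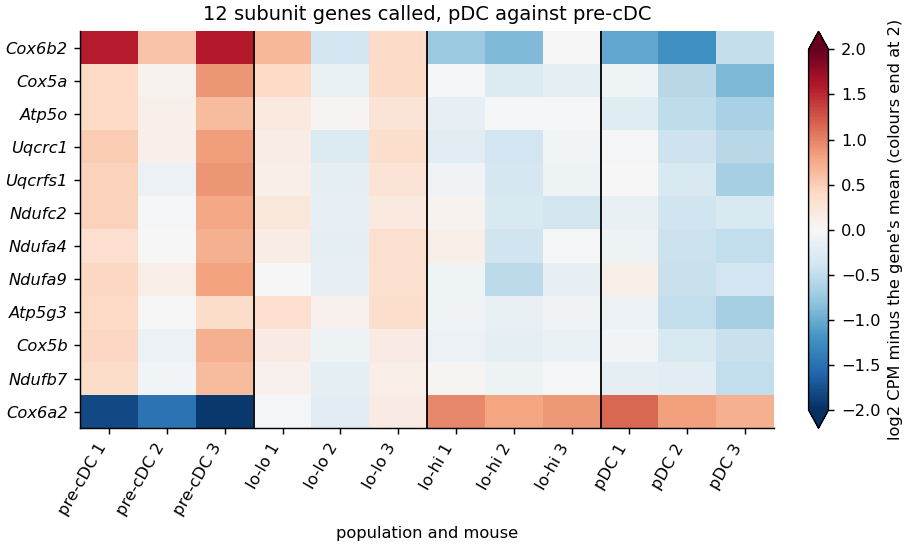
log2 CPM minus the gene's mean over the 12 libraries (colour, which ends at 2 in either direction) for the 12 subunit genes called between pDC and pre-cDC (rows) in each library (columns, by population and mouse). Of the 11 genes that were lower in pDCs, all but Cox5a show their highest values in pre-cDC of mouse 1 and mouse 3, Cox5a in pre-cDC of mouse 3 and lo-lo of mouse 1, and all 11 lower values in pre-cDC of mouse 2, and Cox6a2 shows the reverse order of populations.

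pDCs were also compared with lo-lo cells, and lo-hi cells with pre-cDCs. Against lo-lo cells, 2 genes were lower in pDCs (7.08% of all genes) and 1 higher (6.71%). Those lower were Atp5g3 (-0.66 ± 0.16, adjusted p = 0.00283) and Atp5o (-0.62 ± 0.15, adjusted p = 0.00415), and Cox6a2 was higher by 0.93 ± 0.15 (adjusted p = 5.43e-05). The block by mouse gave 4 lower genes (8.48% of all genes), adding Cox5a and Cox6b2. Between lo-hi and pre-cDC, 3 genes were lower in lo-hi (6.32%), Cox6b2, Uqcrc1 and Ndufa9 (-0.72 ± 0.20, adjusted p = 0.00978), and 1 was higher (6.76%), Cox6a2 by 2.61 ± 0.16 (adjusted p = 1.67e-10). Uqcrc1 and Ndufa9 passed there in 6 of the 12 fits that left out 1 library and missed with total count scaling and with thinned counts, and Atp5g3 and Atp5o passed against lo-lo in 8 of 12. The block gave 9 lower genes there (7.82%). These comparisons share libraries with those above and are no separate evidence.

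The size of the broad difference was uneven between the libraries of the 3 mice. The median of the 77 within-mouse differences between pDC and pre-cDC, on the log2(CPM + 0.5) scale, was -0.16 in mouse 1, -0.08 in mouse 2 and -0.81 in mouse 3, where the median of all genes was 0.03, 0.06 and 0.07. In mouse 3, 74 of the 77 genes were lower in the pDC library, against 56 in mouse 1 and 49 in mouse 2. Without the 4 libraries of mouse 3, 2 subunit genes were lower in pDCs (2.60% against 8.07% of all genes), Cox6b2 (-2.35, adjusted p = 3.31e-05) and Atp5o (-0.66, adjusted p = 0.005), and the median was -0.15. Without those of mouse 2, 19 were lower (24.7% against 9.25%) and the median was -0.48, and without those of mouse 1, 6 were lower (7.79% against 7.12%) and the median was -0.50. A test of the difference between mice was not possible, since each mouse gave 1 library per population, and the animal and the single library cannot be told apart. Mouse 3 also differed in sex-linked genes. Y-linked genes summed to at least 68.6 CPM in its libraries and to at most 7.93 CPM in the others. Xist was at most 58.4 CPM in mouse 3 and at least 218 CPM in the others. The sex of the animal can therefore not be told apart from the animal either.

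**Figure D4:**
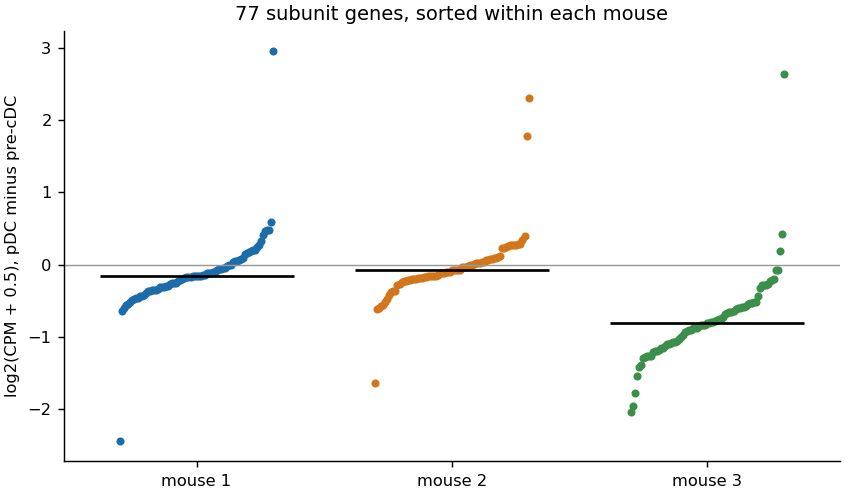
Difference between the pDC and the pre-cDC library of the same mouse on the log2(CPM + 0.5) scale (vertical axis) for the 77 subunit genes, sorted within each mouse (horizontal axis). Black lines are medians, at -0.16, -0.08 and -0.81, and Cox6a2 is the highest point in each mouse, at 2.96, 2.31 and 2.64.

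The 77 genes took 2.10%, 1.497% and 2.29% of the counts of the pre-cDC libraries of mouse 1, 2 and 3, and 1.93%, 1.58% and 1.49% of those of the pDC libraries. The share was thus lower in the pDC library of mouse 1 and mouse 3 and higher in that of mouse 2, where it was lower only without Cox6a2 (1.47% in pre-cDCs and 1.45% in pDCs). The means were 1.96 ± 0.412%, 1.90 ± 0.270%, 1.78 ± 0.153% and 1.66 ± 0.231% (SD, n = 3) from pre-cDC to pDC. Without Cox6a2 they were 1.94 ± 0.415%, 1.82 ± 0.258%, 1.64 ± 0.140% and 1.53 ± 0.208%. The spread between the pre-cDC libraries was larger than the difference between the means of pre-cDC and pDC. The share taken by mitochondrially encoded genes was high in the 4 libraries of mouse 2, from 9.37% to 12.3%, and in mouse 3 it ran from 3.002% in pre-cDCs to 9.99% in pDCs, the reverse of the nuclear genes. Its part in the differences was not tested.

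**Figure D5:**
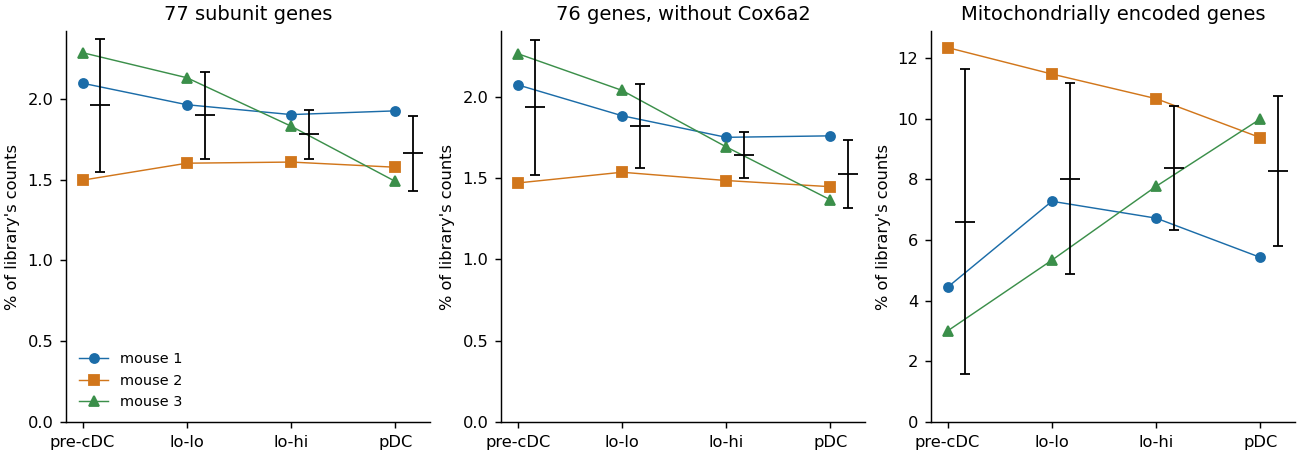
Share of a library's counts (vertical axes, in percent, each from 0) taken by the 77 subunit genes, by the 76 without Cox6a2, and by mitochondrially encoded genes, by population (horizontal axes). Lines join the libraries of a mouse, and black marks give the mean and SD of 3 libraries. The nuclear genes run from 2.29% to 1.49% in mouse 3 and from 1.497% to 1.58% in mouse 2.

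Of the 13 subunits encoded in mitochondrial DNA, 11 had a row in the table, and 0 of these passed in any of the 6 comparisons by edgeR, with 0 at an unadjusted p under 0.05. Their log2 fold changes between pDC and pre-cDC ran from -0.12 ± 0.47 for mt-Atp6 to 0.82 ± 0.48 for mt-Nd3 (adjusted p = 0.878 and 0.241).

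Genes of neighbouring pathways were set beside all genes, of which 10.4% were lower in pDCs than in pre-cDCs and 11.4% higher. Of 5 other electron carriers, 2 were lower in pDCs than in pre-cDCs: Cycs, cytochrome c, by 1.37 ± 0.18 on the log2 scale (adjusted p = 1.72e-06) and Cyc1, cytochrome c1 of complex III, by 0.65 ± 0.17 (adjusted p = 0.00464). Of 18 genes of the tricarboxylic acid cycle and pyruvate dehydrogenase, 2 were lower, near the share of all genes, Fh1 (-1.27 ± 0.21, adjusted p = 2.94e-05) and Idh3g (-0.93 ± 0.17, adjusted p = 9.41e-05). Of 41 assembly factors tested, 1 was higher, Atpaf1 of the ATP synthase (1.69 ± 0.41, adjusted p = 0.00223), which stood at 8.24 CPM or less in every library. Of 13 regulators, 1 was lower, Myc (-3.64 ± 0.35, adjusted p = 8.86e-09). In pDCs against lo-lo, 2 of the 13 were lower (7.08% of all genes were), among them Nrf1 (-0.61 ± 0.16, adjusted p = 0.00562). The medians of these lists were -0.65, -0.35, 0.06 and -0.01, against 0.05 over all genes.

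Genes of cell division moved with the populations as well. The 20 listed proliferation genes summed to 2661 ± 358.9, 2669 ± 114, 1167 ± 159.8 and 525 ± 61.5 CPM (SD, n = 3) from pre-cDC to pDC, and all 20 were lower in pDCs than in pre-cDCs. Markers of other cells were present too. The 4 mast cell and basophil markers summed to 828, 709.5 and 109 CPM in the pre-cDC libraries of mouse 1, 2 and 3 and to between 44.2 and 197 CPM in the other 9. The 6 neutrophil markers summed to between 2863 and 18330 CPM and the 6 erythroid markers to between 4682 and 18420 CPM, the latter highest in pre-cDC of mouse 2. T and NK cell markers were at or near 0, with at most 2.34 CPM. The part of proliferation and of these other cells in the subunit differences was not tested.

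The expression threshold left out 2 genes of the rule. Cox7a1, the muscle isoform of subunit 7A, had 1 to 8 counts per library and a mean of 3.25, and Cox4i2, the isoform of subunit 4 known from lung, had 1 count in 1 library and 0 in the other 11, where the floor of 3 counts stood at 0.5 to 1.67 CPM. Just inside were Atp5g2 with a mean count of 15.8, Atp5s with 17.8 and Cox6b2 with 26.1. Cox4i1, Ndufa13, Cox8b, Cox8c and Ndufa4l2 also match the symbol stems, but no protein-coding gene named in the count table bore these symbols. The 77 genes therefore lack them, and they were not analysed here. Processed pseudogenes with the same symbol stems held 1.55% to 1.83% as many counts as the 77 genes in each library.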

How the data were processed

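SCRB-seq libraries of 4 bone marrow populations from 3 mice were sequenced. Per the labels and the methods, the authors mapped the reads with STAR 2.5.2b to mm10, counted Ensembl GRCm38 genes with zUMIs, and deposited raw counts per gene and well, without normalization. Whether the counts are reads or molecular identifiers is not given in the sources used here.

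Symbols and positions were taken from GENCODE vM21 (GRCm38), which named 21410 of 21754 genes. Genes averaging 1 count or more per library entered 1 model over the 12 libraries with edgeR 4.0.16 (R 4.3.3; TMM, robust quasi-likelihood), without covariates, and p-values were adjusted by Benjamini-Hochberg over 15293 genes with a cutoff of 0.01, the study's own. The standard error is the log2 fold change divided by the square root of its F statistic. Alternatives were DESeq2 1.42.0, other scalings and filters, thinning, a block by mouse, the deposited labels and libraries left out. The genes named are catalytic or defining subunits, paired isoforms, those with the smallest p over 4 populations, those with the largest called changes per comparison and those beside the count threshold. Members, lists and tests were chosen with earlier results of these data known.

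Libraries of one sample number were taken as one mouse. The study speaks of 3 individual mice but ties no number to an animal, so the block by mouse rests on this assumption. Deviations from the population mean correlated at 0.11 on average over 18 pairs with the same number (-0.14 to 0.29, 10 over 0.1) and at -0.055 over 36 other pairs. The rule set for pairing asked for a statement in the sources or for every such pair over 0.1. It was not met, so the block by mouse stands only as an alternative fit. Y-linked genes summed to at least 68.6 CPM in all libraries of mouse 3 and to at most 7.93 CPM in those of the others. The populations of the wells follow the match to the study's source data, not the labels, and that match itself was made on expression values.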

Additional observations from a re-analysis of the deposited data

How the results depend on the processing

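Cox6a2 passed in pDC, lo-hi and lo-lo against pre-cDC, in lo-hi against lo-lo and in pDC against lo-lo under all alternatives but the deposited labels and, for the last of these and lo-hi against lo-lo, the fits without mouse 1. With the deposited labels its pre-cDC to lo-lo difference was 0.10, and with those labels and their replicate block -0.0143, the one reversal among the genes called. Those labels gave 0 subunit genes in each of the 7 tests, with and without the block, and a median of 0.152 and 0.15 for lo-hi against lo-lo (-0.06 by the matched populations). Other alternatives moved counts but kept each called direction. Over the 4 populations (6 genes), 12 passed with DESeq2, 18 without a filter, 16 with the replicate block, 14 at a cutoff of 0.05, 2 without mouse 3, 12 without mouse 2 and 3 without mouse 1, where 18.9%, 16.9%, 24.4%, 27.7%, 14.7%, 15.8% and 11.7% of all genes passed (19.9% as reported). Among these fits the 77 genes passed at a higher share than all genes only without a filter (23.4%). From pre-cDC to lo-lo (1), 2 passed without a filter, with the block or at 0.05 (2.6% against 3.37%, 4.86% and 5.93% of all genes). From lo-lo to lo-hi (1), 0 passed without mouse 1 (1.47% of all genes). Between pDC and pre-cDC (12), 19 passed with DESeq2, with a mean count of at least 10 or with the block, 22 without a filter, 29 at 0.05, 5 with the 6 libraries compared alone, 3 without mouse 3, 20 without mouse 2 and 7 without mouse 1. With both directions pooled, the share of the 77 was above that of all genes with DESeq2 (24.7% against 19.5%), without a filter (28.6% against 16.9%), with thinned counts (20.8% against 16.6%), at 0.05 (37.7% against 31.6%) and without mouse 2 (26% against 18%), and below or near it in the other fits named (15.6% against 21.7% as reported). For lower genes alone it was 14.3% against 10.4% as reported, 23.4% against 12.2% with the block and 23.4% against 14.9% with a mean count of at least 10. For lower genes it was 5.19% against 8.88% with the 6 libraries alone, 2.6% against 8.07% without mouse 3 and 7.79% against 7.12% without mouse 1. Between pDC and lo-lo (3), 5 passed with total counts, without a filter or with the block (6.49% against 13.3%, 11.1% and 17% of all genes). There 6 passed at 0.05 (7.79% against 21.8%), 1 without mouse 3 (1.3% against 10.8%) and 0 without mouse 1 (7.83% of all genes). Between lo-hi and pre-cDC (4), 2 passed with total counts or thinned counts, 11 without a filter (14.3% against 11% of all genes), 10 with the block (13% against 16.2%), 12 at 0.05 (15.6% against 20%), 2 without mouse 3, 7 without mouse 2 (9.09% against 10.9%) and 1 without mouse 1. With both directions pooled, the share was above that of all genes there only without a filter, among the fits named in this paragraph. The causes were not tested. Fits without whole mice were chosen after seeing the data.

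Leaving out 1 library at a time gave 3 to 20 genes over the 4 populations, 1 to 2 from pre-cDC to lo-lo, 4 to 37 between pDC and pre-cDC, 1 to 6 between pDC and lo-lo and 2 to 16 between lo-hi and pre-cDC. The lowest count of each range was below the share of all genes. The 20 were 26% against 21.7%, the 16 were 20.8% against 15.2%, and the 6 were 7.79% against 12.1% of all genes. The 2 from pre-cDC to lo-lo were 2.6% against 4.31%. Between pDC and pre-cDC it was 37 without pre-cDC of mouse 2 (48.1% against 23.2% of all genes) and 27 without pDC of mouse 1 (35.1% against 21.6%). It was 5 without pre-cDC of mouse 1 or mouse 3 (6.49% against 16.4% and 17.4%). It was 4 without pDC of mouse 2 or mouse 3 (5.19% against 17.1% and 18.9%). The median from pre-cDC to lo-lo ran from -0.337 to -0.0336, and that of pDC over pre-cDC from -0.534 to -0.246. With 3 libraries per population and these depths, differences near the size of the standard errors given were not detectable.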
